A study of Arabidopsis thaliana with 9 samples.

Results

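Flavonoids are phenolic compounds that plants build from phenylalanine, and anthocyanins are the coloured branch of the family. The early steps make a chalcone and close its ring, dihydroflavonol reductase then commits the intermediate to anthocyanin, and glycosyltransferases attach sugars that make the pigment soluble and stable. In Arabidopsis the late steps are switched on by a complex of MYB, bHLH and WD40 proteins in response to light and sugar, and SPL9, a transcription factor repressed by miR156, is known to disturb that complex. SPL13 belongs to the same SQUAMOSA-PROMOTER-BINDING PROTEIN-LIKE family.

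Described here are 5 genes of this pathway, chosen by name through the probe sets paired with them alone: CHIL (AT5G05270), DFR (AT5G42800), UGT78D2 (AT5G17050), UF3GT (AT5G54060) and AT4G14090. All 5 of these probe sets, of 22746 without controls, were found, and all 5 were among the 13647 with enough signal to be tested. Whole Arabidopsis thaliana seedlings of 3 genotypes were compared on 9 arrays. The mSPL13 seedlings were Col-0 transformed with an SPL13 gene mutated so that miR156 no longer recognises it, and the SPL13 seedlings were Col-0 transformed with the gene without that mutation. Both transgenes were driven by the gene's own promoter. The third genotype was untransformed wild-type Col-0. Each genotype had 3 arrays, and all 3 genotypes were grown alike on medium with 1% sucrose, first for 3 days at 4 °C in darkness and then for 3 days at 22 °C in light. The labels call the arrays independent biological replicates and name 3 independent seed lots. How the lots fall to the arrays, and how many transgenic lines stand behind each genotype, is not stated in the labels. No probe set was paired with SPL13 itself, so its level was not analysed here.

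Signals are the summarised brightness of each probe set on a linear scale, scaled alike on all arrays. Fold changes are on the log2 scale after adding a pseudocount of 20.7 signal units, which makes those of dim genes smaller. A difference is called when its limma p, adjusted by the Benjamini-Hochberg method over all 13647 probe sets, is under 0.05. Median signals of the arrays lay between 175.6 and 190.8, and the correlation between 2 arrays over the tested probe sets was 0.959 to 0.988. Of the organ markers, 4 root genes and 3 green tissue genes were tested. Their summed signals ranged over 23759 to 25522 in mSPL13, 25152 to 27228 in SPL13, against 26811 to 29424 in Col-0 for root, and over 49145 to 51549 in mSPL13, 50831 to 54349 in SPL13, against 47386 to 54030 in Col-0 for green tissue. Among the root genes NAI2 was lower in mSPL13, by a log2 fold change of -0.67 from Col-0 (limma adjusted p = 0.00377) and of -0.60 from SPL13 (limma adjusted p = 0.0097). The other root genes were not called in mSPL13. From Col-0 the values were -0.07 for PYK10, -0.09 for EXPA7 and -0.50 for EXPA18. From SPL13 they were 0.04, 0.22 and -0.15. PYK10 made up most of the root sum, at 18257 to 20879 over the arrays. SPCH, a regulator of the stomatal lineage, was higher in mSPL13 seedlings than in Col-0, with a log2 fold change of 1.12 ± 0.18 (limma adjusted p = 0.00315), and the summed signal of the 2 guard cell lineage genes measured was 411.8 to 587.1 in mSPL13, 306.3 to 351.7 in SPL13, against 245.9 to 284.4 in Col-0. SPCH made up most of that sum, at 301.6 to 479.6 in mSPL13. The other gene, FMA, had too little signal to be tested. It read 107.5 to 146.2 in mSPL13, 60.2 to 121.8 in SPL13, against 82.1 to 93.5 in Col-0. The part of these markers in the results for the 5 genes was not tested. No epidermis marker of 5 had a probe set of its own, and BAN, a seed coat gene, read 6 or less on every array. In whole seedlings, fewer cells of a type and less RNA per cell cannot be told apart.

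The first question is at which steps of the pathway the seedlings differed. All 5 genes had their highest mean in Col-0 and their lowest in mSPL13. CHIL was lower in mSPL13 than in both other genotypes, DFR and AT4G14090 were lower in mSPL13 than in Col-0, and the other comparisons did not pass the test. DFR, UF3GT and AT4G14090 shared a further feature: the Col-0 array of replicate 3 read far below Col-0 replicates 1 and 2. UGT78D2 fell stepwise over the Col-0 arrays, with 1478.3, 1015.9 and 698.1 in replicates 1, 2 and 3.

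**Figure D1:**
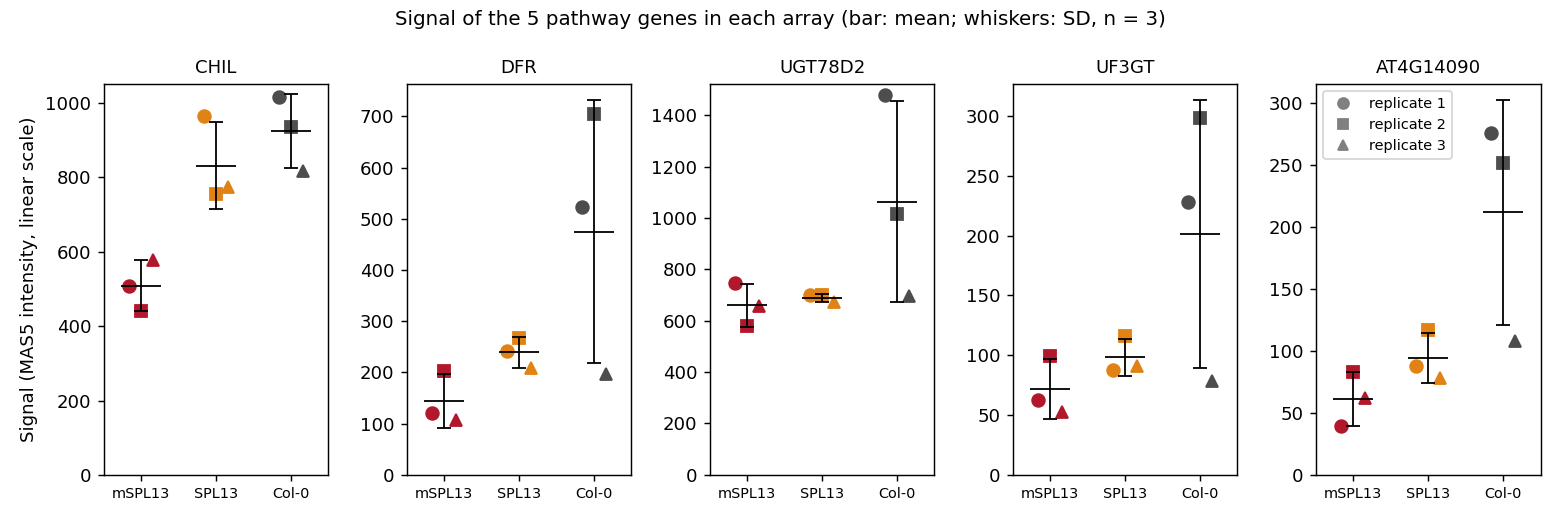
Signal of CHIL, DFR, UGT78D2, UF3GT and AT4G14090 (MAS5 intensity, linear scale) in mSPL13, SPL13 and Col-0 seedlings. Symbols are single arrays by replicate number, the long bar is the mean and the whiskers are the SD (n = 3). CHIL of mSPL13 lies below all other arrays, and the third Col-0 array lies near the transgenic arrays for the other 4 genes.

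CHIL encodes a chalcone isomerase-like protein that lacks isomerase activity and raises the output of the first committed steps. Its signals were 508.6, 440.7 and 578.8 in mSPL13, against 965.9, 756.6 and 773.8 in SPL13 and 1016.6, 936.1 and 818.7 in Col-0. Every mSPL13 array read below every other array, while the SPL13 and Col-0 arrays overlapped. The means were 509.4 ± 69.1 in mSPL13, 832.1 ± 116 in SPL13, against 923.8 ± 99.5 in Col-0 (SD, n = 3 each). CHIL was 1.79-fold lower in mSPL13 seedlings than in wild-type Col-0 (log2 fold change -0.84 ± 0.14, SE, limma adjusted p = 0.00444). Against SPL13 it was 1.61-fold lower (-0.69 ± 0.14, limma adjusted p = 0.0176). SPL13 and Col-0 differed by -0.15 ± 0.14, with an interval of -0.45 to 0.15 (limma adjusted p = 0.8). The call against Col-0 held in all 20 alternatives that were run, between -0.93 and -0.74. That against SPL13 was lost without SPL13 replicate 1 (-0.58), mSPL13 replicate 1 (-0.69) or mSPL13 replicate 2 (-0.59).

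DFR encodes dihydroflavonol reductase, the first enzyme of the anthocyanin branch proper. Signals were 120.8, 203.8 and 106.8 in mSPL13, 241.5, 267.4 and 208.5 in SPL13, and 523.9, 704 and 197 in Col-0. The SPL13 arrays were all above the mSPL13 arrays, and Col-0 replicate 3 was below every SPL13 array and below mSPL13 replicate 2. DFR averaged 143.8 ± 52.4 in mSPL13, 239.1 ± 29.5 in SPL13, against 475 ± 257 in Col-0. It was 2.77-fold lower in mSPL13 seedlings than in Col-0 (-1.47 ± 0.34, limma adjusted p = 0.0252). By fold change it ranked 21st from the most negative of the 13647 probe sets in that comparison. The differences of mSPL13 from SPL13 (-0.70 ± 0.34, limma adjusted p = 0.322) and of SPL13 from Col-0 (-0.77 ± 0.34, limma adjusted p = 0.531) did not pass. The DFR call was lost without Col-0 replicate 1 (-1.32) or 2 (-1.11), without mSPL13 replicate 1 (-1.38) or 3 (-1.31), and with no filter on low signal (limma adjusted p = 0.0844).

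UGT78D2 attaches the first glucose to both flavonols and anthocyanidins, so it serves both branches. It read 747.1, 577.9 and 655.9 in mSPL13, 699.6, 699.1 and 672.3 in SPL13, and 1478.3, 1015.9 and 698.1 in Col-0. The SPL13 arrays lay within the range of the mSPL13 arrays, and so did Col-0 replicate 3. The means were 660.3 ± 84.7 in mSPL13, 690.3 ± 15.6 in SPL13, against 1064.1 ± 392 in Col-0. The difference from Col-0 was of like size for mSPL13 (-0.61 ± 0.20, limma adjusted p = 0.104) and SPL13 (-0.55 ± 0.20, limma adjusted p = 0.464), and neither passed. Without Col-0 replicate 1 they were -0.35 for mSPL13 and -0.28 for SPL13. Between mSPL13 and SPL13 it was -0.07 ± 0.20, with an interval of -0.50 to 0.36.

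UF3GT, despite its symbol, encodes the enzyme that adds xylose to the glucose already placed on the anthocyanin. Its signals were 62.9, 99.7 and 52.4 in mSPL13, 88, 115.9 and 91 in SPL13, and 228.1, 298.1 and 78.6 in Col-0. As for DFR, Col-0 replicate 3 was below every SPL13 array and below mSPL13 replicate 2. UF3GT averaged 71.7 ± 24.8 in mSPL13, 98.3 ± 15.3 in SPL13, against 201.6 ± 112 in Col-0. The log2 fold change from Col-0 was -1.14 ± 0.34 in mSPL13 (limma adjusted p = 0.0747) and -0.75 ± 0.34 in SPL13 (limma adjusted p = 0.55). Between mSPL13 and SPL13 it was -0.39 ± 0.34 (limma adjusted p = 0.611). With array quality weights the mSPL13 difference from Col-0 passed (-1.23, limma adjusted p = 0.0448).

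AT4G14090 is the glucosyltransferase that places a second sugar, at the 5 position of the anthocyanin. It read 39.2, 82.9 and 62 in mSPL13, 87.5, 117.1 and 77.8 in SPL13, and 275.3, 251.3 and 107.7 in Col-0. All mSPL13 arrays were below all Col-0 arrays, and Col-0 replicate 3 lay between the SPL13 arrays. The means were 61.4 ± 21.9 in mSPL13, 94.1 ± 20.5 in SPL13, against 211.4 ± 90.6 in Col-0. AT4G14090 was 2.72-fold lower in mSPL13 seedlings than in Col-0 (-1.44 ± 0.29, limma adjusted p = 0.0139). SPL13 differed from Col-0 by -0.94 ± 0.29 (limma adjusted p = 0.402), and mSPL13 from SPL13 by -0.51 ± 0.29 (limma adjusted p = 0.423). The call was lost without Col-0 replicate 1 (-1.22) or 2 (-1.28), without mSPL13 replicate 1 (-1.23), and with no filter on low signal (limma adjusted p = 0.0526). With no filter, CHIL alone of the 5 was called in that comparison, against 0.774% of all probe sets lower. With the pseudocount at the 40th percentile the value was -0.91.

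**Figure D2:**
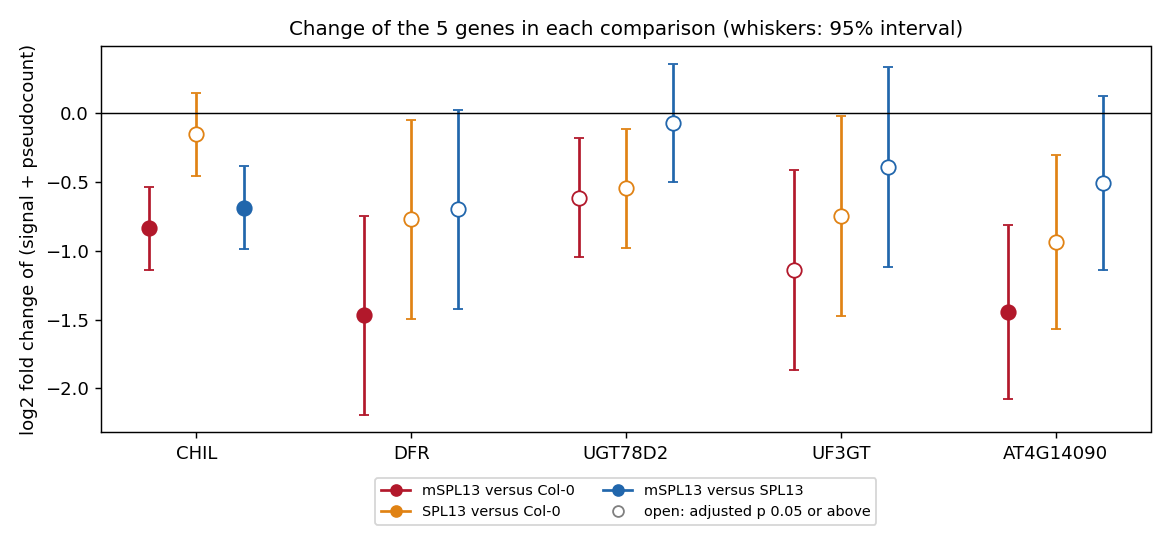
Log2 fold changes of signal plus pseudocount for the 5 genes for 3 comparisons: mSPL13 with Col-0, SPL13 with Col-0, and mSPL13 with SPL13. Whiskers are 95% intervals, filled points have a limma adjusted p under 0.05 and open points do not. CHIL is filled in both mSPL13 comparisons, and DFR and AT4G14090 in mSPL13 versus Col-0.

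In counts, 3 of the 5 genes were lower in mSPL13 than in Col-0, against 2.3% of all probe sets tested. In mSPL13 versus SPL13 it was 1 of 5, against 1.17%. In SPL13 versus Col-0 limma called 0 of 5, where 4 of the 5 had an unadjusted p under 0.05, against 8.83% of all probe sets at that unadjusted threshold. With the adjusted p, 0.0366% of all probe sets were lower. The median log2 fold change of the 5 genes was -1.14 in mSPL13 versus Col-0, -0.51 in mSPL13 versus SPL13 and -0.75 in SPL13 versus Col-0, against 0.01, -0.00055 and 0.01 over all probe sets tested. These comparisons share arrays. Groups did not overlap for CHIL and AT4G14090 in mSPL13 versus Col-0, an order that 10.5% of probe sets showed, and for CHIL and DFR in mSPL13 versus SPL13, where 11.7% did. In SPL13 versus Col-0 the groups overlapped for each of the 5, and 6.07% of probe sets had SPL13 wholly below Col-0. UF3GT and AT4G14090 passed the filter on low signal through Col-0: their mean log2 values were 6.50 and 6.32 in mSPL13 and 6.89 and 6.83 in SPL13, under the limit of 6.92, and 7.64 and 7.77 in Col-0. The 5 genes were also chosen with earlier results of these data known. The counts and medians are therefore a description of these genes. Beside the mSPL13 differences, the ratio of 3' to 5' signal of the GAPDH control, which rises as RNA breaks down, was 1.1, 1.01 and 1.04 in mSPL13, against 0.838, 1.03 and 0.984 in SPL13 and 0.944, 0.999 and 0.988 in Col-0, and its part in the result was not tested. The actin ratio was 3.12, 2.27 and 3.21 in mSPL13, against 2.94, 2.21 and 2.62 in SPL13 and 2.63, 2.49 and 2.67 in Col-0. The ubiquitin ratio was 1.28, 1.1 and 1.26 in mSPL13, against 1.07, 1.05 and 1.09 in SPL13 and 1.2, 1.11 and 1.05 in Col-0. Replicates 1 and 3 of mSPL13, highest in both ratios, were also the lowest of the 9 arrays for DFR, UF3GT and AT4G14090, and this was not tested further.

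The spread among the Col-0 arrays sets how firmly these values can be read. The SD of the log2 values over the 3 arrays was 0.43 in mSPL13, 0.17 in SPL13, against 0.91 in Col-0 for DFR. For UF3GT it was 0.37 in mSPL13, 0.18 in SPL13, against 0.89 in Col-0, for AT4G14090 0.40 in mSPL13, 0.25 in SPL13, against 0.66 in Col-0, and for UGT78D2 0.18 in mSPL13, 0.03 in SPL13, against 0.53 in Col-0. CHIL had 0.19 in mSPL13, 0.19 in SPL13, against 0.15 in Col-0, close to the median probe set, whose SD was 0.15 in mSPL13, 0.14 in SPL13, against 0.17 in Col-0. In Col-0, 99.9% of the probe sets tested had a smaller SD than DFR and 99.9% a smaller one than UF3GT, 99.4% than AT4G14090, 98.3% than UGT78D2 and 43.9% than CHIL. The highest Col-0 signal was 3.57 times the lowest for DFR, 3.79 times for UF3GT, 2.56 times for AT4G14090, 2.12 times for UGT78D2 and 1.24 times for CHIL.

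**Figure D3:**
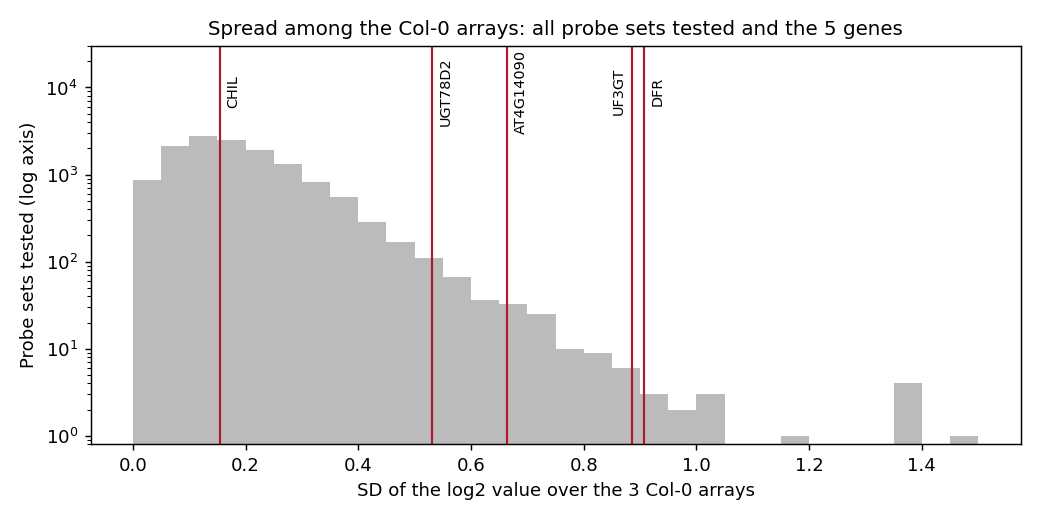
Number of probe sets tested (log axis) by the SD of their log2 value over the 3 Col-0 arrays, with a line at each of the 5 genes. CHIL lies at 0.15, within the bulk, and UGT78D2, AT4G14090, UF3GT and DFR lie at 0.53 to 0.91, in the upper tail.

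Col-0 replicate 3 was the lowest Col-0 array in all 5 genes, though for UGT78D2 replicate 1 stood as far above replicate 2 as replicate 3 lay below it. Its signal was 32.1% of the mean of Col-0 replicates 1 and 2 for DFR, 29.9% for UF3GT, 40.9% for AT4G14090, 56% for UGT78D2 and 83.9% for CHIL. Ranked by that difference on the log2 scale, DFR (-1.53) was the 6th lowest and UF3GT (-1.50) the 7th lowest of the 13647 probe sets, AT4G14090 (-1.14) was at rank 28, UGT78D2 (-0.79) at 94 and CHIL (-0.25) at 1929. The median of all probe sets was 0.02. Over all probe sets its mean correlation with the other two Col-0 arrays was 0.977, against 0.978 and 0.98 for replicates 1 and 2. In it 44 probe sets were lower and 42 higher than the mean of the other two by over 1 on the log2 scale, against 22 and 26 in replicate 1 and 18 and 13 in replicate 2. By the same count within its own genotype, SPL13 replicate 1 had 76 lower and 35 higher. The SD of that difference over all probe sets was 0.29 in Col-0 replicate 3, the largest of the 9 arrays, which otherwise had 0.235 to 0.285. The 3' to 5' ratios of Col-0 replicate 3 were 0.988 for GAPDH and 2.67 for actin, against 0.944 and 0.999, and 2.63 and 2.49, in replicates 1 and 2. Why the array read low in these genes was not tested.

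With Col-0 replicate 3 left out, all 5 genes were lower in mSPL13 than in Col-0, against 3.3% of probe sets in that fit. The log2 fold changes were then -0.92 ± 0.15 for CHIL, -1.98 ± 0.23 for DFR, -0.88 ± 0.16 for UGT78D2, -1.64 ± 0.24 for UF3GT and -1.83 ± 0.25 for AT4G14090 (limma adjusted p of 0.000335 to 0.00769). In SPL13 versus Col-0, 4 of the 5 were then lower, against 0.747% of probe sets: DFR (-1.28 ± 0.23), UF3GT (-1.25 ± 0.24), AT4G14090 (-1.32 ± 0.25) and UGT78D2 (-0.81 ± 0.16), with limma adjusted p of 0.0181 to 0.0319. CHIL stayed at -0.23 ± 0.15 (limma adjusted p = 0.522). Col-0 replicate 3 was the lowest Col-0 array in all 5 genes, so leaving it out could only raise their Col-0 means. UF3GT and AT4G14090 were also among the probe sets of this fit through their Col-0 signal. The counts without that array are therefore a description. Without Col-0 replicate 1, or without replicate 2, only CHIL of the 5 was called in mSPL13 versus Col-0, against 1.27% and 0.945% of probe sets lower, and limma called 0 of the 5 in SPL13 versus Col-0. Set against Col-0 replicate 3 alone, the SPL13 mean differed by 0.25 on the log2 scale for DFR and for UF3GT, 0.01 for CHIL, -0.02 for UGT78D2 and -0.18 for AT4G14090. The mSPL13 mean differed from that array by -0.45 for DFR, -0.14 for UF3GT, -0.67 for CHIL, -0.09 for UGT78D2 and -0.68 for AT4G14090.

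Steps of the pathway were then compared as changes within arrays, with CHIL as the early step. The log2 fold change from Col-0 differed from that of CHIL by -0.63 for DFR, -0.61 for AT4G14090, -0.30 for UF3GT and 0.22 for UGT78D2 in mSPL13. In SPL13 the difference from CHIL was -0.62 for DFR, -0.79 for AT4G14090, -0.60 for UF3GT and -0.39 for UGT78D2. Two-sided exact permutation tests of the 8 differences gave p of 0.2 to 0.8 (adjusted p of 0.457 to 0.8 over 8 tests), and with 3 arrays against 3 the smallest p possible is 0.1. Single Col-0 arrays moved these differences: DFR minus CHIL was -0.29 in mSPL13 and -0.27 in SPL13 without Col-0 replicate 2, and -1.06 in mSPL13 and -1.05 in SPL13 without Col-0 replicate 3. UGT78D2 minus CHIL in mSPL13 was 0.42 without Col-0 replicate 1 and 0.04 without Col-0 replicate 3. UF3GT against CHIL in mSPL13 changed sign when the pseudocount was the 40th percentile (0.0073) and without Col-0 replicate 2 (0.02). The test therefore could not pass at 0.05, and the values are a description. Across the 9 arrays the log2 values of DFR correlated with those of UF3GT at 0.984 and of AT4G14090 at 0.948, with UGT78D2 at 0.744 and with CHIL at 0.699. These coefficients describe arrays that share genotypes and include the low Col-0 array.

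The list of the pathway held 65 loci, of which 12 had a probe set of their own and 9 were tested, the 5 genes included. The list had no such probe set for the entry steps from phenylalanine (0 of 9 loci) or for the repressors (0 of 9), and 1 of 14 for the activators. Over the 9 tested loci, 5 were lower and 0 higher in mSPL13 than in Col-0, with a median of -0.74, against 2.3% of all probe sets lower. In mSPL13 versus SPL13 it was 1 lower, with a median of -0.39, against 1.17%. In SPL13 versus Col-0 limma called 0, against 0.0366% lower, and 5 of the 9 had an unadjusted p under 0.05, against 8.83% of all probe sets, with a median of -0.48. The 5 genes weigh on these figures, and 4 tested loci remained without them. Of these 4, against the same shares, 2 were lower in mSPL13 versus Col-0 (median -0.39) and 0 in mSPL13 versus SPL13 (median -0.09). In SPL13 versus Col-0 0 were lower (median -0.33), and 1 of the 4 had an unadjusted limma p under 0.05. The list too was chosen with earlier results of these data known, so its counts are a description.

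Beside the 5 genes, both further calls were in mSPL13 versus Col-0. AT1G06000, the rhamnosyltransferase that completes flavonol glycosides, read 620.6, 650.8 and 565 in mSPL13, 1049.5, 785.5 and 803.9 in SPL13, and 1412.4, 937.7 and 828.4 in Col-0. All its mSPL13 arrays were below all others, and it was lower in mSPL13 than in Col-0 by a log2 fold change of -0.74 ± 0.18 (limma adjusted p = 0.0318). Against SPL13 the value was -0.50 ± 0.18 (limma adjusted p = 0.162). HYH, a light-response bZIP factor related to HY5, an activator of flavonoid genes, read 328.5, 279.8 and 220 in mSPL13, 361.1, 313.1 and 253.3 in SPL13, and 493.8, 431.2 and 384.9 in Col-0. Its arrays of both transgenic genotypes were below all Col-0 arrays, with log2 fold changes of -0.63 ± 0.17 in mSPL13 (limma adjusted p = 0.0492) and -0.48 ± 0.17 in SPL13 (limma adjusted p = 0.437). The AT1G06000 call was lost without Col-0 replicate 1 or 2, without any one mSPL13 array, and with no filter on low signal (limma adjusted p of 0.0609 to 0.108). The HYH call was lost without Col-0 replicate 1 or 2, SPL13 replicate 2 or 3, or mSPL13 replicate 2 or 3. It was also lost with no filter, with a smaller pseudocount or none, without the trend, with the compared groups alone and with array quality weights (limma adjusted p of 0.0501 to 0.165 over these settings).

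The remaining list genes did not pass. UGT78D1, which places rhamnose on flavonols, ranged over 278 to 355.3 in mSPL13, 170.9 to 347.3 in SPL13, against 255.3 to 438.8 in Col-0, and its log2 fold change from Col-0 was -0.10 ± 0.22 in mSPL13 and -0.42 ± 0.22 in SPL13. HCT, which leads toward lignin, differed from Col-0 by -0.16 ± 0.13 in mSPL13 and -0.13 ± 0.13 in SPL13. AT5MAT, which adds malonate to the sugar that AT4G14090 places, was below the filter, with 38.6, 39.3 and 28.8 in mSPL13, 5.7, 51.4 and 32.6 in SPL13, and 76.9, 93.3 and 48.5 in Col-0. Col-0 replicate 3 was the lowest of the 3 Col-0 arrays for AT5MAT, and also for AT1G06000, HYH, UGT78D1 and HCT. A probe set shared by 2 acyltransferase genes of the list, also below the filter, read 21.2, 60.9 and 33.4 in mSPL13, 87.9, 58.4 and 59.8 in SPL13, and 198.1, 149.9 and 47.1 in Col-0. UGT78D3 and BAN read 15.5 or less on every array.

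**Figure D4:**
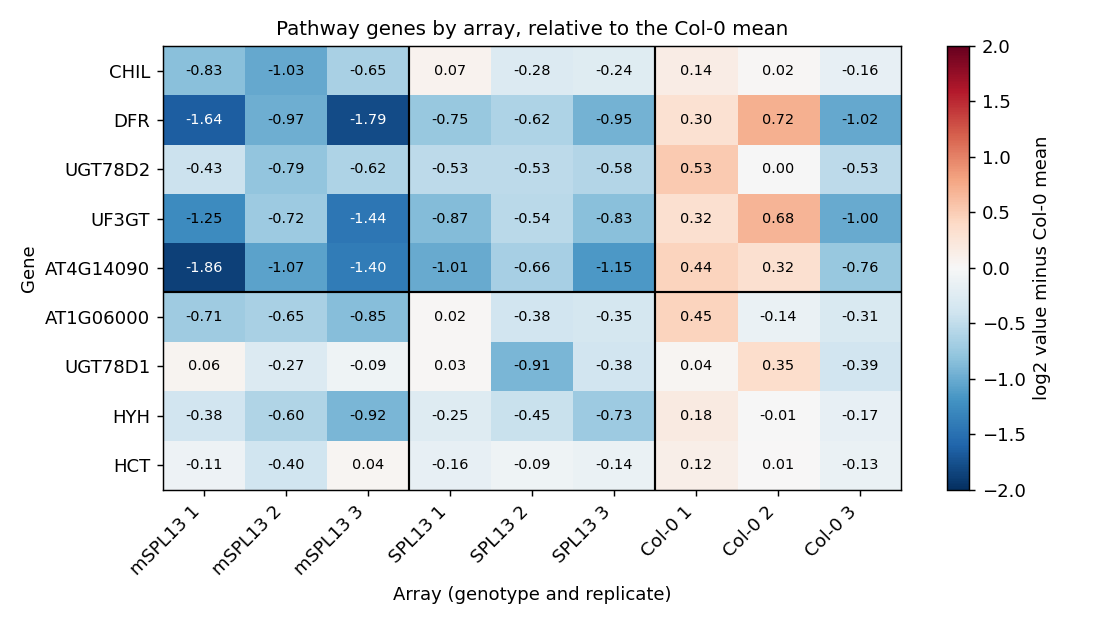
Log2 value minus the Col-0 mean for the 5 genes (upper rows) and the other 4 tested genes of the list (lower rows) in each array of mSPL13, SPL13 and Col-0. Blue is below and red above the Col-0 mean. DFR, UF3GT and AT4G14090 are red in Col-0 replicates 1 and 2 and blue in the other 7 arrays, while CHIL is well below the Col-0 mean in the mSPL13 arrays, at -1.03 to -0.65, and between -0.28 and 0.14 elsewhere.

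Outside the list, the 5 probe sets of a single gene whose log2 values followed the mean standardised profile of the 5 genes most closely, of 7284 ranked, were AT3G04840 (Pearson's r = 0.982 over the 9 arrays), AT1G68670 (0.969), the beta-expansin EXPB1 (0.966), AT1G80130 (0.961) and AT3G47380 (0.957). These coefficients are a description over arrays that share genotypes, chosen as the highest of many. The genes named here, alike or opposite, were picked for their values on these same 9 arrays. Their differences between genotypes and between Col-0 arrays therefore follow in part from the choice and are no separate result. EXPB1 read 316.4, 275.9 and 270.9 in mSPL13, 457.9, 414.9 and 300.6 in SPL13, and 805.6, 712.4 and 369.1 in Col-0, so that its Col-0 replicate 3 was also the low Col-0 array. AT3G04840, a ribosomal protein gene, had a log2 fold change of -0.21 ± 0.10 in mSPL13 versus Col-0 (limma adjusted p = 0.232). Its means were 9570 ± 180 in mSPL13, 10293 ± 250 in SPL13, against 11125 ± 1023 in Col-0. AT1G80130 and AT3G47380 were lower in mSPL13, with log2 fold changes from Col-0 of -1.58 ± 0.22 and -1.06 ± 0.19 (limma adjusted p of 0.00155 and 0.00588). The 3 most opposite profiles were those of AT5G24450 (r = -0.982), EXO (-0.976), a gene known to respond to brassinosteroid hormones, and AT3G02060 (-0.972). EXO read 4384.2, 4399.3 and 4158.3 in mSPL13, 2924, 3156.4 and 3801.1 in SPL13, and 1745.8, 2150.4 and 3614.6 in Col-0, where replicate 3 was the high Col-0 array. It was higher in mSPL13 seedlings, by a log2 fold change of 0.85 ± 0.20 from Col-0 (limma adjusted p = 0.028).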

How the data were processed

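RNA of whole seedlings was measured on 9 single-channel Affymetrix arrays. The authors deposited linear intensity values made with GCOS and MAS5, per the submitters' processing notes. The arrays carry 1 common scaling (means of the signals without the outermost 2% at each end were 495.2 to 495.6). Probe sets were named through the platform's gene table, which lists a single gene for 13513 of the 22746 probe sets without controls, and TAIR10.1 names were found for 13436 of these.

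A pseudocount of 20.7 (20th percentile of the signals) was added before taking log2. The filter on low signal required an average log2 value over 6.92, the 40th percentile, and left 13647 probe sets. The model in limma 3.58.1 (R 4.3.3) had a mean for each genotype and used the 9 arrays together (eBayes with a trend on mean signal, 6 residual and 7.92 prior degrees of freedom). A call is a Benjamini-Hochberg adjusted p under 0.05 over all 13647. Leaving out an array kept this pseudocount and these probe sets. Differences in change between 2 genes were tested with two-sided exact permutation tests. Figures used matplotlib 3.10.9. Precision is limited by the number of arrays.

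The 5 genes, the list of 65 pathway loci, the markers and the tests were chosen with earlier results of these data known. The genes named beside the 5 are every list locus with a probe set of its own, and the 5 probe sets most like and the 3 most unlike the mean standardised profile of the 5 genes by Pearson's r over the arrays. Promoter sequences were not used here.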

Additional observations from a re-analysis of the deposited data

How the results depend on the processing

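Settings changed the counts more than the directions: apart from the exceptions given here, the fold changes of the 5 genes kept their sign in every alternative run. Of the 5 genes in mSPL13 versus Col-0, limma called 1 lower with no filter on low signal, against 0.774% of all probe sets. It called 1 with the filter at the 60th percentile, where only CHIL and UGT78D2 were tested, against 2.68%. At an adjusted p under 0.01 it called 1, against 102 of 13647 probe sets lower. In mSPL13 versus SPL13 it called 0 at 0.01, against 50 of 13647. Leaving out 1 array at a time gave 0 to 1 in mSPL13 versus SPL13, against 0.528% to 1.41% of probe sets lower. It gave 1 to 5 in mSPL13 versus Col-0, against 0.945% to 3.3%, and 0 to 4 in SPL13 versus Col-0, against 0% to 0.747%. The list genes, the 5 included, stand against the same shares. In mSPL13 versus Col-0 they were 1 of 12 tested with no filter, 3 of 6 tested with the stricter filter and 1 of 9 at 0.01. In mSPL13 versus SPL13 they were 0 at 0.01. With an array left out they were 0 to 1, 1 to 7 and 0 to 4, in the order of comparisons used for the 5 genes. Over all probe sets, the counts that follow are calls in either direction, of 13647 tested or of 22746 with no filter. In mSPL13 versus SPL13, 414 became 236 with no filter, 688 with array weights, 132 at 0.01 and 737 at 0.1. It was 200 to 468 with an array left out. In mSPL13 versus Col-0, 596 became 373 with no filter, 198 at 0.01, 1111 at 0.1 and 248 to 903 with an array left out. In SPL13 versus Col-0, 7 became 14 under a pseudocount at the 40th percentile, 1 with no filter, 24 with median centring, 1 without the trend, 2 with the compared groups alone, 1 at 0.01, 39 at 0.1 and 1 to 148 with an array left out. UGT78D2 in mSPL13 versus SPL13 ran from -0.16 to 0.02 with an array left out (0.0198 without mSPL13 replicate 2). The difference between UF3GT and CHIL in mSPL13 versus Col-0 was 0.0073 under that pseudocount and ran from -0.72 to 0.02 with an array left out (0.0241 without Col-0 replicate 2). The cause was not tested. With the replicate number as a block, UF3GT was also called in mSPL13 versus Col-0 (limma adjusted p = 0.0261), which made 4 of the 5 genes and 6 of the 9 list genes, against 2.41% of all probe sets lower in that fit. The block changed no other call of the 5 genes, and the numbers are not shown to pair the arrays: same-numbered arrays had deviations correlated at -0.06 to 0.15, over 0.1 in 3 of 9 pairs. The alternatives for the differences between genes and for the SD over Col-0 were chosen after seeing the data. Low signal limits UF3GT and AT4G14090 most, and a larger pseudocount shrinks their fold changes.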

Other observations

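The probe sets that read lowest in Col-0 replicate 3 against the other two Col-0 arrays were looked up after their values were seen. Ahead of DFR and UF3GT stood 2 chloroplast photosystem genes, psbB (-2.51 on the log2 scale) and psbA, with AT1G65490 (-2.22), AT1G60590 (-2.05) and a probe set with no listed gene (-1.95). The chloroplast gene psbB read 4894, 1885.9 and 2137.3 in mSPL13, 126.8, 201 and 278.3 in SPL13, and 2177.2, 1498 and 301.1 in Col-0. Its mSPL13 arrays were all above its SPL13 arrays, whereas those of DFR were all below. Against Col-0, psbB of mSPL13 replicates 2 and 3 was below Col-0 replicate 1. AT1G60590 read 177, 182.6 and 195.4 in mSPL13, 182.6, 122.1 and 92 in SPL13, and 744.1, 788 and 169.4 in Col-0. In that gene, as in the 5 flavonoid genes, the third Col-0 array was inside the range spanned by the transgenic arrays. For CHIL, the second Col-0 array (936.1) was inside that range as well. AT3G21670, a nitrate transporter gene, was at rank 9 (-1.43), with 182.4, 130.8 and 134.6 in mSPL13, 227.6, 85.5 and 132.3 in SPL13, and 421.2, 475.6 and 153.5 in Col-0.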
